A study of Mus musculus with 6 samples.

Results

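The genes described here are the 4 ligands of the platelet-derived growth factor (PDGF) family, Pdgfa, Pdgfb, Pdgfc and Pdgfd, their receptor genes Pdgfra and Pdgfrb, and 4 genes used to mark fibroblasts, Fap, Thy1, Pi16 and Dpt. They were matched by symbol to the gene identifiers of the count tables and make up 10 of the 54146 gene rows. Each symbol had 1 identifier. RNA was sequenced from tumors of 4T1 cells, a mouse mammary carcinoma line, grown for 3 weeks at the orthotopic site, the mammary fat pad, in nude mice, a strain without a thymus. The implanted cells were either wild type or carried a knockout of Mki67, which encodes the proliferation marker Ki-67, with 3 libraries per genotype. The knockout was in the implanted cells, so the host stroma of both groups came from nude mice with no Mki67 knockout stated. The labels used here do not say how many knockout clones were used, nor the strain background, sex or age of the mice, so a difference between clones cannot be told apart from the knockout. They also do not say whether the 3 libraries of a group came from separate mice, so p-values measure only the spread between these libraries, which may be technical in part.

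PDGFs are secreted as disulfide-linked dimers that bind and pair receptor tyrosine kinases on mesenchymal cells. PDGF-A and PDGF-C act mainly through the alpha receptor, PDGF-B through both receptors, and PDGF-D mainly through the beta receptor, while PDGF-C and PDGF-D are released in a latent form that a protease must cut. In mammary tissue the alpha receptor is best known from fibroblasts and the beta receptor from pericytes and fibroblasts, and carcinoma cells are a common source of the ligands. Fap, a surface protease, and Thy1, a surface glycoprotein, are found on activated and resting fibroblasts. Pi16 is used to mark fibroblasts that lie around vessels, and Dpt encodes a matrix protein of fibroblasts.

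The start regions of 4 genes are shown because they take opposite directions in the comparison: the ligands Pdgfc and Pdgfa, the alpha receptor gene Pdgfra and the fibroblast gene Dpt. Each is a window of 250 bases before to 50 bases after a RefSeq start of the gene (GRCm38.p6), printed on the gene's own strand. Matches to the searched motifs are in capitals. The windows lie at chr3:81036166-81036465 (+) for Pdgfc, chr5:138994895-138995194 (-) for Pdgfa, chr5:75152001-75152300 (+) for Pdgfra and chr1:164796413-164796712 (+) for Dpt. The Pdgfa window lies inside the annotated gene, which reaches base 138997370 at its 5' end, and is not the only Pdgfa window.
Pdgfc: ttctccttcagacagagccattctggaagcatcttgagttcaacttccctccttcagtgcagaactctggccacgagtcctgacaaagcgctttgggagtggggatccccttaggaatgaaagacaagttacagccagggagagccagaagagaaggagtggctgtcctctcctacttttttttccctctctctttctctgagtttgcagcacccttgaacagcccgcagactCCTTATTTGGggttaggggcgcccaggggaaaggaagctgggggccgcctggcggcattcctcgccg
Pdgfa: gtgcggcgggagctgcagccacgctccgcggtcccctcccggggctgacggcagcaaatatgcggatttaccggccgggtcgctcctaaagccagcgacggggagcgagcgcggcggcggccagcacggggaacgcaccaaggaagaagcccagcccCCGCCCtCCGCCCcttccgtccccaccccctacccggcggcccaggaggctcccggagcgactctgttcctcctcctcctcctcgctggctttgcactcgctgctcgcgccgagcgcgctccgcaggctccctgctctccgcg
Pdgfra: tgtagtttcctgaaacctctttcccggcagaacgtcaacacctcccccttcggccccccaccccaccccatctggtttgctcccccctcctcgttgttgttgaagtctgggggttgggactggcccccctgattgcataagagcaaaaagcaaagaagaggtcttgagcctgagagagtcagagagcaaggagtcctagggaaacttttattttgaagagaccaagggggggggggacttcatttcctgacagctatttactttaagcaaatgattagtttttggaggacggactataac
Dpt: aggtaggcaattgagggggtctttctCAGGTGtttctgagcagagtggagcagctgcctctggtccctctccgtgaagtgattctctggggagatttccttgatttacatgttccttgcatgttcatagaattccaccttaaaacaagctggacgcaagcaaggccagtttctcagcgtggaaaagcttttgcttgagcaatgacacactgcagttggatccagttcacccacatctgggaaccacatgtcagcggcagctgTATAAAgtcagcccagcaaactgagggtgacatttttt

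The search took 6 motifs on both strands. The letters of the GC box and the EGR site can overlap, but no matches overlapped in these windows. The capitals in Pdgfc are a CArG box, the serum response factor motif, whose first base is 17 bases before the start (-17), and 1.63% of the 32851 windows in the RefSeq table hold one. The Pdgfa window holds 2 GC boxes, GGGCGG read on the other strand, at -93 and -86, and 35.7% of all windows hold that motif. The Dpt window holds an E-box, CAGGTG, at -224 and a TATA box, TATAAA, at 13 bases after the start, motifs found in 20.2% and 13.6% of all windows. Pdgfra held none of the 6 motifs, which also included the AP-1 site TGANTCA (7.81% of windows) and the EGR site GCGNGGGCG (5.55%). GC content was 73.3% with 37 CpG in the Pdgfa window, against 55.0% and 8 CpG in Pdgfc, 51.0% and 5 CpG in Pdgfra and 48.7% and 4 CpG in Dpt. The medians over all windows were 52.7% GC and 7 CpG, so of these 4 windows only that of Pdgfa was strongly CpG-rich. The table held 7 windows for 6 of the 10 genes. A second Pdgfa window had 1 GC box at -60, the Pdgfd window had a TATA box at -160, and the Pi16 window had none of the motifs. A match is a description of the letters only.

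Gene counts per library ran from 37065778 to 38399826 read pairs in the wild-type tumors and were 30772729, 25239215 and 22081970 in the knockout tumors. Mki67 itself was at 359.6, 394.6 and 324.7 CPM (counts scaled for library size with TMM factors) in wild type and at 98.7, 117.4 and 138.5 in knockout, lower but not absent (log2 fold change -1.61, SE 0.14, edgeR adjusted p = 6.79e-05). Transcripts of a disrupted gene can still be counted, and the labels do not give the edited site. The carcinoma keratins Krt8 (1449 against 1640 CPM) and Krt18 (1079 against 1438) and the adhesion genes Epcam (117 against 902) and Cdh1 (105 against 427) were present in both groups. Unmapped pairs made up 31.2% to 33.9% of all pairs in wild type and 30.8%, 54.6% and 52.7% in knockout replicates 1, 2 and 3. Knockout replicate 2 stood apart for Pi16, Pdgfrb, Fap, Thy1 and Dpt, whose values without it are given below.

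All 10 genes passed the filter on low counts. With edgeR and an adjusted p under 0.05 over the 19900 genes tested, 7 were higher in knockout tumors (Pdgfa, Pdgfb, Pdgfrb, Fap, Thy1, Pi16 and Dpt), 2 were lower (Pdgfc and Pdgfra) and Pdgfd passed in neither direction. Of all genes tested, 17.6% were called higher and 18.4% lower, and the members' median log2 fold change was 1.06 against 0.05 over all genes tested. The 3 knockout values did not overlap the 3 wild-type values for 9 of the 10 genes, while 50.5% of all genes tested showed no overlap in either direction. The tumors were sequenced in bulk, so a different number of cells of a type and a different amount of RNA per cell cannot be told apart, nor can carcinoma cells and host cells as the source of a transcript.

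**Figure D1:**
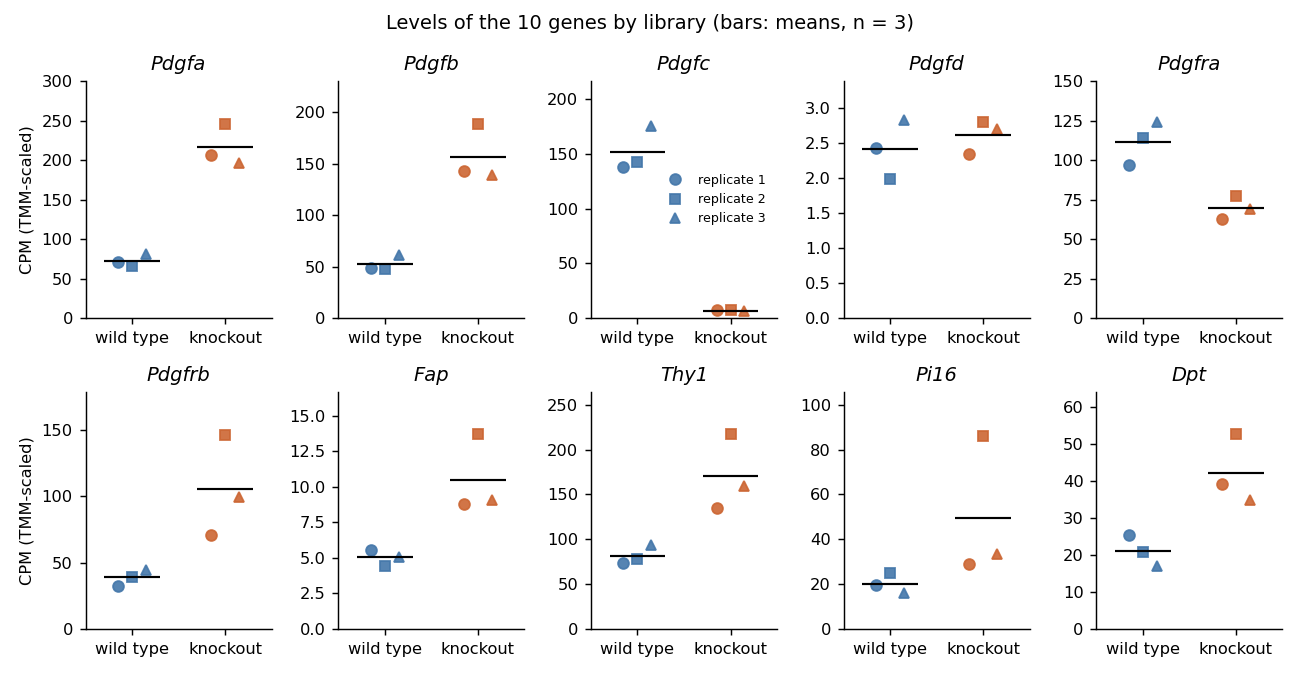
Each panel plots 1 gene in CPM (y axis, from 0) for the 3 wild-type and 3 knockout libraries (x axis), with the marker shape giving the replicate number and the bar the mean of 3. Pdgfc lies between 138.0 and 175.2 CPM in wild type and between 6.24 and 7.55 in knockout, and knockout replicate 2 is the highest knockout point in every panel but Pdgfc.

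Pdgfc (ENSMUSG00000028019, chr3:81036416-81214040, +), a ligand with a latency domain, stood at 138.0, 143.1 and 175.2 CPM in the wild-type tumors and at 7.55, 7.15 and 6.24 in the knockout tumors. Every knockout library was far under every wild-type library, and the knockout values lay close together. The level fell 21.7-fold (log2 fold change -4.44, SE 0.14, edgeR adjusted p = 4.68e-07), from 152 ± 20.2 to 6.98 ± 0.67 CPM (SD, n = 3). The raw counts behind these values were 4999, 5402 and 6556 in wild type and 232, 181 and 145 in knockout, so the knockout level was low but well above the limit that a count of 0 allows (0.078 to 0.136 CPM).

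Pdgfa (ENSMUSG00000025856, chr5:138976014-138997370, -), the ligand of the alpha receptor that epithelia commonly make, moved the other way. It was at 71.04, 65.97 and 80.84 CPM in wild type and at 206.3, 245.5 and 197.0 in knockout. The groups were clearly separate and the level rose 2.98-fold (log2 fold change 1.57, SE 0.12, edgeR adjusted p = 3.48e-05). Of its 3119 exonic bases, 26.1% are covered by 6330403L08Rik on the opposite strand, and pairs that touch both genes are not counted for either, so Pdgfa is counted in part. That neighbor had 530 to 698 counts in wild type and 477 to 608 in knockout, with the groups overlapping.

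Pdgfb (ENSMUSG00000000489, chr15:79995874-80014977, -), the ligand that recruits pericytes to vessels, was at 48.7, 47.7 and 61.5 CPM in wild type and 142.5, 187.9 and 138.7 in knockout. It rose 2.97-fold (log2 fold change 1.57, SE 0.15, edgeR adjusted p = 0.000125), again with every knockout library above every wild-type library. Pdgfd (ENSMUSG00000032006, chr9:6168584-6378850, +), the latent ligand of the beta receptor, was the lowest of the ligands, at 2.43, 1.99 and 2.83 CPM in wild type and 2.34, 2.80 and 2.71 in knockout. Its groups overlapped, and the difference was 0.11 on the log2 scale (SE 0.21, edgeR adjusted p = 0.698). At 63 to 106 counts per library, a change of a size near that SE was not detectable.

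**Figure D2:**
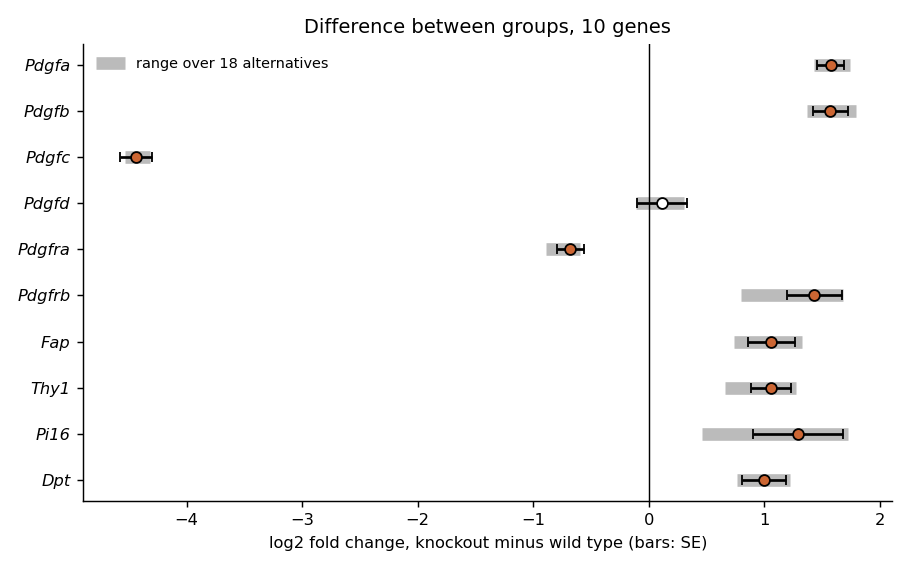
The x axis gives the log2 fold change, knockout minus wild type, for each of the 10 genes (y axis), with bars for the SE, filled points for an adjusted p under 0.05 and grey bands for the range over 18 alternative settings. Pdgfc sits at -4.44, Pdgfra at -0.68, and the band of Pi16 reaches from 0.46 to 1.72.

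Divided by exonic length, so that genes can be set side by side, the wild-type levels were 29.9 ± 3.96 CPM per kilobase (SD, n = 3) for Pdgfc, 23.3 ± 2.42 for Pdgfa, 12.6 ± 1.85 for Pdgfb and 0.77 ± 0.13 for Pdgfd. Because Pdgfa is counted in part, the levels were also divided by the exonic bases that no other gene covers (2306 for Pdgfa and 4942 for Pdgfc), an alternative added after the data were seen. Pdgfa was then at 30.8, 28.6 and 35.1 CPM per kilobase in the wild-type libraries and Pdgfc at 27.9, 29.0 and 35.5. These values overlapped, so the order of Pdgfa and Pdgfc in wild type depends on the length used, and both were above Pdgfb and Pdgfd under either. In knockout, Pdgfa led with 69.3 ± 8.26 CPM per kilobase over the whole exonic length and 93.8 ± 11.2 over the unshared length. It was followed by Pdgfb with 37.6 ± 6.58, Pdgfc with 1.37 ± 0.13 and Pdgfd with 0.83 ± 0.08, with no overlap between neighbors under either length.

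As a share of the summed ligand level per kilobase within each library, a quantity that needs no scaling between libraries, Pdgfc made up 43.5%, 45.8% and 45.3% in wild type and 1.45%, 1.11% and 1.24% in knockout. The difference was -43.6 percentage points, with an exact two-sided permutation p of 0.1, the smallest that 3 against 3 libraries can give. Over the unshared exonic length the Pdgfc share was 39.2%, 41.6% and 41.1% in wild type and 1.21%, 0.94% and 1.04% in knockout. With the whole length, Pdgfa went from 35.03% ± 1.31 to 63.6% ± 1.10 and Pdgfb from 19.0% ± 0.42 to 34.3% ± 1.29 (SD, n = 3). With the unshared length these were 41.7% and 70.3% for Pdgfa and 16.7% and 28.0% for Pdgfb, higher in every knockout library under both. The Pdgfb to Pdgfa ratio per kilobase was 0.51, 0.54 and 0.57 in wild type and 0.52, 0.57 and 0.53 in knockout, and these values overlapped (exact permutation p = 1.0). Over the unshared length that ratio was 0.38 to 0.42 in both groups. The summed ligand level was 66.6 ± 8.20 CPM per kilobase in wild type and 109.1 ± 14.9 in knockout (75.7 and 133.6 over the unshared length), with no overlap (exact permutation p = 0.1).

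**Figure D3:**
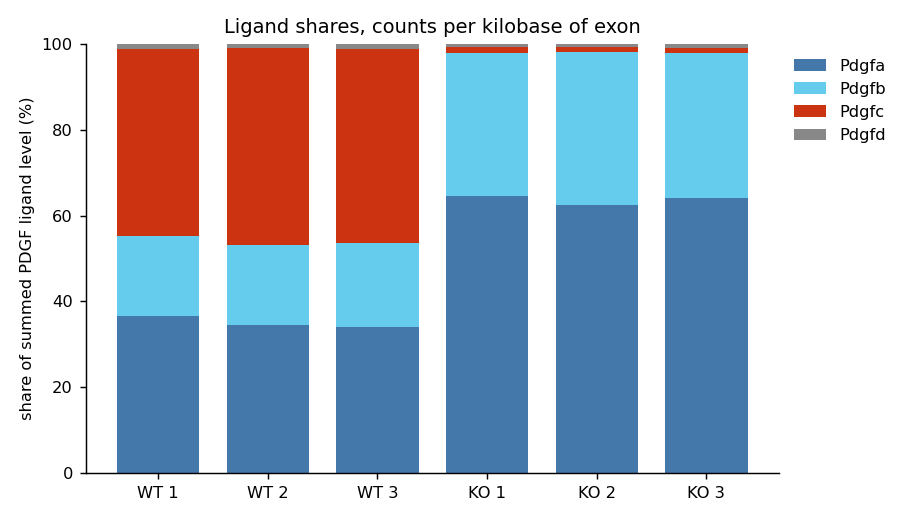
Stacked bars give each ligand's share (%, y axis) of the summed ligand level per kilobase of whole exonic length in each library (x axis; WT wild type, KO knockout). The Pdgfc share is 43.5% to 45.8% in the wild-type bars and 1.11% to 1.45% in the knockout bars.

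The receptor genes moved in opposite directions. Pdgfra (ENSMUSG00000029231, chr5:75152292-75198215, +), the alpha receptor, was at 97.4, 114.0 and 124.3 CPM in wild type and 63.0, 77.5 and 69.5 in knockout. The highest knockout library was under the lowest wild-type library, and the level fell 1.60-fold (log2 fold change -0.68, SE 0.12, edgeR adjusted p = 0.00304). Pdgfrb (ENSMUSG00000024620, chr18:61045150-61085061, +), the beta receptor, was at 32.7, 39.2 and 44.7 CPM in wild type and 70.6, 145.9 and 99.2 in knockout. All 3 knockout libraries were higher than the wild-type libraries, but they differed among themselves by more than the wild-type ones did. The level rose 2.70-fold (log2 fold change 1.44, SE 0.24, edgeR adjusted p = 0.00249). Without knockout replicate 2 the log2 fold change was 1.08, still past the threshold.

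Per kilobase of exon, Pdgfra was above Pdgfrb in every wild-type library and under it in every knockout library. The mean level of Pdgfra went from 11.2 ± 1.36 to 6.98 ± 0.72 CPM per kilobase and that of Pdgfrb from 7.10 ± 1.10 to 19.2 ± 6.94 (SD, n = 3). The ratio of Pdgfra to Pdgfrb was 1.63, 1.59 and 1.52 in wild type and 0.49, 0.29 and 0.38 in knockout. On the log2 scale the ratio went from 0.66 ± 0.05 to -1.40 ± 0.37, a difference of -2.06 (exact two-sided permutation p = 0.1, the smallest possible). Their summed level was 15.7, 18.5 and 20.6 CPM per kilobase in wild type and 19.2, 34.36 and 25.04 in knockout, and these overlapped (exact permutation p = 0.2).

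**Figure D4:**
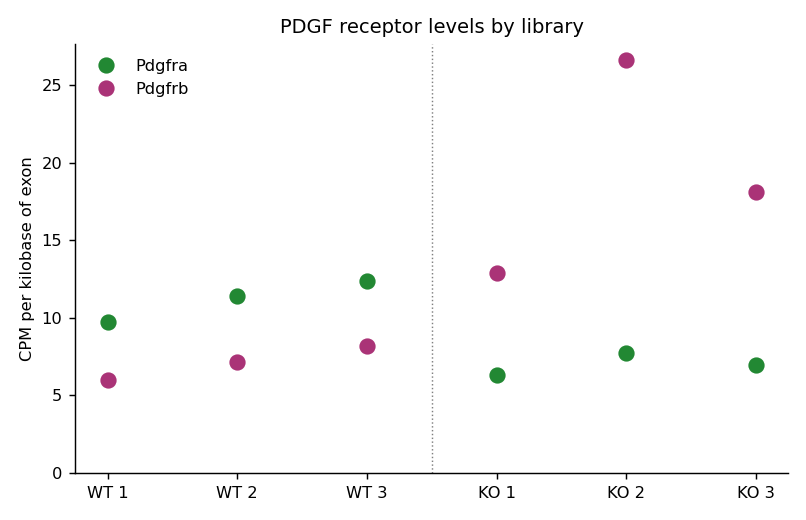
Points give Pdgfra and Pdgfrb in CPM per kilobase of exon (y axis, from 0) in each library (x axis; WT wild type, KO knockout). Pdgfra lies above Pdgfrb left of the dotted line and under it to the right, with Pdgfrb reaching 26.6 in knockout replicate 2.

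All 4 fibroblast genes were higher in knockout tumors. Thy1 (ENSMUSG00000032011, chr9:44043384-44048579, +) was at 74.0, 77.6 and 93.3 CPM in wild type and 135.1, 217.1 and 158.9 in knockout. The groups did not overlap, and the level rose 2.09-fold (log2 fold change 1.06, SE 0.17, edgeR adjusted p = 0.00219). Thy1 is also expressed by mouse T cells, and the 13 genes of the T cell list summed to 10.8 to 12.4 CPM in wild type and 21.9 to 23.4 in knockout. These sums did not overlap, while the median log2 fold change was -0.07 over the 10 genes tested. Of those 10, only Trbc1 (1.62 to 11.4 CPM) and Trac (0.30 to 3.53) were called higher, and Lck (3.66 to 1.81) was called lower. The part of T cells in the Thy1 value was not tested. Fap (ENSMUSG00000000392, chr2:62500943-62574075, -), a low-level gene here, was at 5.58, 4.45 and 5.05 CPM in wild type and 8.78, 13.7 and 9.04 in knockout. Every knockout value was higher than every wild-type value, and the level rose 2.09-fold (log2 fold change 1.06, SE 0.20, edgeR adjusted p = 0.00447).

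Dpt (ENSMUSG00000026574, chr1:164796644-164824266, +), which encodes a matrix protein of fibroblasts, was at 25.3, 20.8 and 17.0 CPM in wild type and 39.0, 52.5 and 34.7 in knockout. The groups were separate, and the level rose 1.999-fold (log2 fold change 1.00, SE 0.19, edgeR adjusted p = 0.00422). Pi16 (ENSMUSG00000024011, chr17:29317680-29330593, +), a peptidase inhibitor of fibroblasts around vessels, was at 19.4, 25.1 and 15.9 CPM in wild type and 28.9, 86.2 and 33.3 in knockout. Knockout replicate 2 was far above the other knockout libraries, which lay just above the wild-type range. The level rose 2.45-fold (log2 fold change 1.30, SE 0.39, edgeR adjusted p = 0.0305), the call nearest the threshold of the 9. Without knockout replicate 2 the log2 fold change was 0.58 and still past the threshold, and the call was lost without wild-type replicate 1, 2 or 3 (adjusted p = 0.103, 0.0531 and 0.120) and with DESeq2 (0.0668).

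The genes differed in how far knockout replicate 2 stood from the others. Its level divided by the mean of knockout replicates 1 and 3 was 2.77 for Pi16, 1.72 for Pdgfrb, 1.53 for Fap, 1.48 for Thy1 and 1.42 for Dpt, against 1.22 to 1.34 for Pdgfa and Pdgfb, 1.17 for Pdgfra and 1.04 for Pdgfc. The median over all genes tested was 1.03. Knockout replicate 2 was the highest of the knockout libraries for 9 of the 10 genes, and for 42.7% of all genes tested. Among summed marker levels, the ratio was 2.28 for the 12 adipocyte genes and 1.96 for the 12 keratinocyte genes. It was 1.45 for the 20 pan-fibroblast genes, 1.44 for the 11 pericyte genes and 1.42 for the 8 parenchymal genes. It was lower in other lists, at 1.09 for the 15 adventitial genes of the Pi16 and Dpt type and 1.21 for the 13 myofibroblast genes. Skeletal muscle had 1.09, and the T cell and carcinoma epithelium lists 1.01 each. Such sums follow the most abundant genes, and the adventitial genes differed. In knockout replicates 1, 2 and 3, Clec3b was at 12.8, 22.4 and 10.2 CPM and Gfpt2 at 7.32, 16.4 and 8.99. Ly6a was at 162.7, 133.8 and 116.8 and Ackr3 at 134.7, 102.6 and 118.4. The part of the listed cell types in the values of the 10 genes was not tested. Without knockout replicate 2 the log2 fold change was 0.78 for Fap, 0.80 for Thy1 and 0.77 for Dpt, all still past the threshold (edgeR adjusted p = 0.00408, 0.00087 and 0.00429). With the share of unmapped pairs as a covariate, the log2 fold changes were 0.92 for Pdgfrb, 0.77 for Thy1, 0.81 for Fap and 0.86 for Dpt, all still past the threshold, and 0.55 for Pi16 (edgeR adjusted p = 0.331).

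Genes that act on the ligands or with the receptors were read next. Of 12 genes for ligand processing and co-receptors, 5 were higher and 3 lower, with a median log2 fold change of 0.33 (0.05 over all genes). The proteases that can release PDGF-C or PDGF-D were among the higher ones: Plau, urokinase, went from 171 to 580 CPM (log2 fold change 1.76), St14, matriptase, from 92.7 to 308 (1.73) and Plat, tissue plasminogen activator, from 33.2 to 49.4 (0.57). Lox, the lysyl oxidase that modifies the beta receptor, went from 52.3 to 122.5 (1.23). Lrp1, a co-receptor of the beta receptor, fell from 1289 to 610 CPM (log2 fold change -1.08). Nrp1 fell by 0.39 and Plaur by 0.36 on the log2 scale. The count of 3 lower genes was 1 without wild-type replicate 2. Calls over all genes tested, 3506 higher and 3652 lower in the main fit, also moved when 1 library was left out. Without wild-type replicate 1, 2 and 3, 1821, 1981 and 1855 were higher and 2257, 2434 and 2624 lower. Without knockout replicate 1, 2 and 3, 4330, 4648 and 2601 were higher and 4778, 4653 and 2517 lower. The list counts with 1 library left out are to be read against these.

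The closest receptor relatives were mostly lower. Of 7 genes for the other class III receptor tyrosine kinases and their ligands, 6 were lower and none higher, with a median of -0.87. Csf1, the macrophage growth factor, fell from 336 to 105 CPM (log2 fold change -1.68), its receptor Csf1r from 240 to 101 (-1.24) and Kitl, the ligand of Kit, from 92.1 to 30.7 (-1.58). The macrophage list, which also holds Csf1r, had 14 of 15 genes lower. Its summed level was 5779 to 6676 CPM in wild type and 1035 to 1265 in knockout, and its part in the Csf1r value was not tested. Of 5 VEGF family genes, relatives of the PDGF ligands, Vegfa alone rose, from 109 to 266 CPM (1.28), with 2 genes called without knockout replicate 1.

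Genes that carry the receptor signal inside the cell gave few calls in the higher direction. Of 22 receptor-proximal genes, 2 were higher and 7 lower (9.09% and 31.8% of the list, against 17.6% and 18.4% of all genes), with a median of -0.18. The adaptors Shc1 (207 to 127 CPM, log2 fold change -0.71) and Nck1 (56.1 to 33.3, -0.75) fell. These counts were 1 higher and 2 lower without any 1 of the wild-type replicates, and 4 higher without knockout replicate 1, 1 higher without knockout replicate 2, and 1 higher and 2 lower without knockout replicate 3. Of 13 negative regulators, 1 was higher and 4 lower, with a median of -0.15. Dusp6, a phosphatase induced by ERK signalling, fell from 339 to 172 CPM (-0.97) and Spry4 rose from 19.0 to 27.7 (0.54). The 4 lower genes became 2 when any 1 wild-type replicate or knockout replicate 3 was left out, and the 1 higher gene became 0 when wild-type replicate 1 or 2 was left out and 2 when knockout replicate 1 or 2 was.

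Genes that PDGF is known to induce in cultured fibroblasts went both ways. Of 18, 10 were higher and 4 lower, with a median of 0.50. The immediate early genes Junb (342 to 700 CPM, log2 fold change 1.03) and Fos (24.1 to 46.2, 0.94) rose, while the chemokine genes Ccl2 (70.9 to 6.94, -3.35) and Ccl7 (39.3 to 9.40, -2.06) fell. Ccl2 was at 65.4, 83.5 and 63.8 CPM in wild type and at 8.04, 6.28 and 6.50 in knockout, clearly separate. These genes also respond to many other signals.

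The wider fibroblast lists were mostly higher. Of 20 pan-fibroblast genes, 16 were higher and 2 lower, with a median of 0.76. The matrix genes Fbln2 (516 to 1345 CPM, log2 fold change 1.38), Col5a2 (258 to 523, 1.02) and Fstl1 (131 to 255, 0.96) rose. Vim, the intermediate filament of mesenchymal cells, fell from 5241 to 2329 CPM (-1.17) and was the most abundant of the genes named from this list. The 16 became 8, 9 and 9 without wild-type replicate 1, 2 and 3, and the 2 lower genes became 1 without wild-type replicate 1 or 2 or knockout replicate 3. Higher calls over all genes fell as well without wild-type replicate 1, 2 and 3, from 3506 to 1821, 1981 and 1855. The summed level was 10696 to 12282 CPM in wild type and 11863, 18731 and 13964 in knockout, so these sums overlapped. Vim alone made up 5083, 5330 and 5312 CPM of the wild-type sums and 2310, 2356 and 2322 of the knockout sums. Sums without Vim were not taken, so the overlap does not describe the other genes, of which 16 were higher.

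Fibroblasts of the Pi16 and Dpt type were read from 15 further genes, of which 9 were higher and none lower, with a median of 0.47. Ly6a, which encodes a surface antigen of adventitial progenitors, went from 32.4 to 137.8 CPM (log2 fold change 2.09), Ackr3 from 61.8 to 118.6 (0.94) and Clec3b from 5.66 to 15.2 (1.42). Dpp4, which marks the same cells, had mean levels of 3.05 and 4.22 CPM and missed the threshold (0.47, edgeR adjusted p = 0.207), as did Cd34 (log2 fold change 0.28, edgeR adjusted p = 0.163). The other genes of the list not called were Sema3c (-0.36), Cd55 (-0.38), Pcolce2 (-0.05) and Efhd1 (0.03). Without wild-type replicate 1, 2 or 3 the higher count was 4, 5 and 4, and without knockout replicate 2 there were 2 lower genes. Gsn and Dcn are in this list and in the pan-fibroblast list.

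Of 13 myofibroblast-type genes, 10 were higher and none lower, with a median of 1.22, and 1 was lower without knockout replicate 2. Tnc rose from 301 to 887 CPM (log2 fold change 1.56), Lrrc15 from 69.7 to 217 (1.64) and Col11a1 from 1.27 to 11.0 (3.11). Of 13 inflammatory fibroblast genes, 9 were higher and 1 lower, with a median of 1.04. C3, the complement component, went from 60.7 to 600 CPM (3.31) and Cxcl12 from 14.4 to 69.1 (2.26), and the lower gene was Ccl2; 2 were lower without knockout replicate 1 or 2. Of 8 parenchymal fibroblast genes, 4 were higher, among them Smoc2 (1.95 to 11.7 CPM, 2.58). That count was 2 without wild-type replicate 1 or 2 or knockout replicate 3, and 1 gene was lower without knockout replicate 2. Of 9 genes of antigen-presenting fibroblasts and mesothelium, 7 could be tested and 5 rose, a count of 3 when wild-type replicate 1 or knockout replicate 3 was left out, but Krt19, the largest change (5.32), is also on the carcinoma list. Their carcinoma or host source cannot be told apart.

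**Figure D5:**
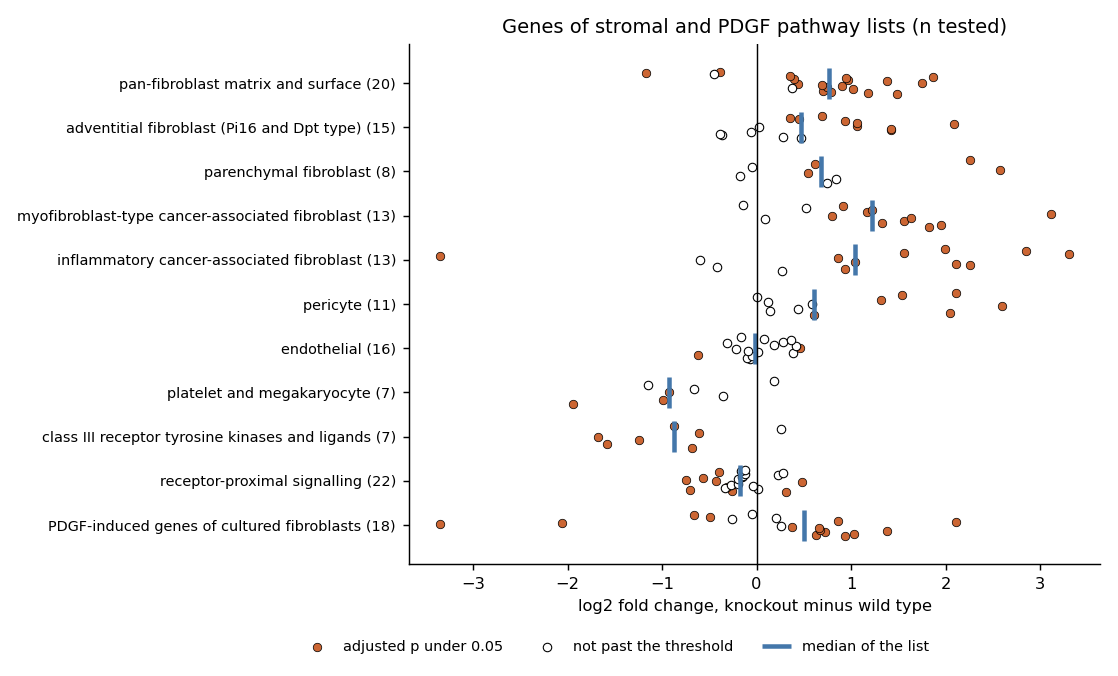
Points give the log2 fold change, knockout minus wild type (x axis), of each tested gene of 11 lists (y axis, number tested in brackets), filled for an adjusted p under 0.05, with bars at the list medians. The myofibroblast list has its median at 1.22, the endothelial list at -0.02 and the list of class III receptor genes at -0.87.

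Other cells that carry these genes were read the same way. Of 11 pericyte genes, the cells for which Pdgfrb is a marker, 6 were higher and none lower, with a median of 0.61. Notch3 rose from 7.84 to 47.4 CPM (log2 fold change 2.59), Cspg4 from 6.60 to 27.3 (2.05) and Des from 5.17 to 12.9 (1.32). The summed level of the 11 genes was 192.5 to 251.4 CPM in wild type and 288.5, 430.9 and 310.5 in knockout, with no overlap. The 5 pericyte genes not called were Anpep (0.58), Abcc9 (0.44), Kcnj8 (0.14), Mcam (0.12) and Higd1b (0.01). Of 16 endothelial genes, which include the usual source of Pdgfb, 1 was higher (Emcn, 0.46) and 1 lower (Flt1, -0.61), with a median of -0.02 and summed levels of 610 to 783 CPM in wild type and 548 to 755 in knockout. The higher count fell to 0 when wild-type replicate 1 or 2, or knockout replicate 2 or 3, was left out, and was 2 without knockout replicate 1, and the lower count was 2 without knockout replicate 2.

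Platelets carry much PDGF protein, and of 11 platelet and megakaryocyte genes, 7 were tested, none was higher and 3 were lower, with 1 lower without wild-type replicate 1 or 2. Pf4 fell from 54.7 to 14.3 CPM (log2 fold change -1.95), and Gp1bb was at 0 in every library. Gp5, Gp6 and Gp9 were too low to test, and Gp1ba had mean levels of 1.15 and 0.60 CPM in wild type and knockout. In the T cell list, which bears on Thy1, 10 of 13 genes were tested, Trac (0.30 to 3.53 CPM) and Trbc1 (1.62 to 11.4) rose and Lck (3.66 to 1.81) fell, while Cd3e was at 0.57 and 0.91 CPM and Cd3d, Cd8a and Cd8b1 were too low to test. Of 11 natural killer cell genes, 8 were tested, 1 was higher and 7 lower. Adipocyte genes had 11 of 12 higher (summed level 203 to 246 CPM in wild type and 461, 1223 and 609 in knockout). Keratinocyte genes had 12 of 12 higher (83.5 to 147.0 CPM and 1019, 1746 and 767), but 5 of 12 without wild-type replicate 1 or 3. Skeletal muscle genes had 9 of 11 tested higher, 5 without wild-type replicate 1 or 3, and 11 of 12 carcinoma epithelium genes were higher. Fat, skin and muscle lie beside the fat pad, and the part of such tissue in the higher Dpt, Pi16, Thy1 and Pdgfrb values was not tested.

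The genes whose profile over the 6 libraries was most like each member's were read from 12125 protein-coding genes with a mean of at least 2 CPM, by Pearson r of log2 CPM. The nearest were Ly9 for Pdgfc (0.9995), Dqx1 for Pdgfa (0.9994), Smim19 for Pdgfb (0.9983), Fgfrl1 for Pdgfra (0.9983) and Mark1 for Pdgfrb (0.9998). For Thy1 the nearest was Col1a2 (0.9994), for Fap Mxra7 (0.9997), for Dpt Dhrs13 (0.9975) and for Pi16 Cst6 (0.9955), while Pdgfd reached 0.9685 with Trp53i11. The 6 libraries fall into 2 separate genotype groups, and the r values are given as a description, since the libraries and the genotype split are shared by all genes.

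Neighbors on the chromosome, chosen after their values were seen, were higher or lower in a way that differed by member. Downstream of Pdgfc, Ctso, a cathepsin gene 719 kb away, fell from 57.5 to 15.6 CPM (log2 fold change -1.88, edgeR adjusted p = 7.67e-06), while Gria2 on the other side had mean levels of 0.35 and 0.71 CPM and missed the threshold (adjusted p = 0.190). Both genes beside Pdgfra were lower, Chic2 by -0.49 (edgeR adjusted p = 0.0342) and Kit, another class III receptor gene 377 kb away, by -0.68 (0.0457). Csf1r, 15.5 kb from Pdgfrb, was lower (-1.24) where Pdgfrb was higher, and Ifih1, 21.7 kb from Fap, was lower (-1.25) where Fap was higher. Other neighbors were higher like the member: Slc6a7 by Pdgfrb (2.55, edgeR adjusted p = 0.0144, mean levels 0.11 and 0.65 CPM), Prkar1b by Pdgfa (1.26, 0.0023) and Nectin1 by Thy1 (1.42, 0.000217). On the far sides, Fam20c by Pdgfa was lower (-0.72, edgeR adjusted p = 0.0187) and Usp2 by Thy1 missed the threshold (0.134).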

How the data were processed

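RNA from 3 wild-type and 3 Mki67 knockout 4T1 tumors was sequenced in paired-end mode, per the labels. The deposited values are raw counts, whole numbers of read pairs for each gene, in the layout of STAR's gene counts. STAR 2.6.0c, FastQC and DESeq2 with GRCm38 are named in the submitters' processing notes, and the annotation release is not given in the sources used here. In this layout, pairs that map to several places or overlap several genes are not counted for a gene. At the top of each table, 4 rows name no gene. They held 45.2% to 66.5% of all pairs and were left out. The first stranded column held 50.1% to 50.2% of stranded counts, so the unstranded column was used, and a gene and its antisense partner cannot be separated. Of 54146 gene rows, 54079 matched GENCODE M21 by identifier.

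The test was edgeR 4.0.16 under R 4.3.3 (TMM scaling, filterByExpr, glmQLFit and glmQLFTest), with Benjamini-Hochberg adjustment over 19900 genes and a threshold of 0.05. SE was taken as |log2 fold change| over the root of the F statistic. Levels per kilobase used the merged exons of each gene in GENCODE M21. Ratios and shares were compared with exact two-sided permutation tests. A count of 0 allows up to 3 counts, which covers counting error only.

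The members and the 22 gene lists were chosen with earlier results of these data known. The text names the 10 members, up to 4 genes with the smallest p per list, Krt8, Krt18, Epcam, Cdh1 and Mki67, and, of the 3 genes whose profile was most similar to each member's, the nearest. Lrp1, Nrp1, Plaur, Dpp4, Cd34, Cd3e, the uncalled adventitial and pericyte genes and the chromosomal neighbors were chosen outside that rule after their values were seen. Genes named as untested or at 0 come from the lists. Alternatives were DESeq2 1.42.0, RLE factors, library totals, no filter and a stricter filter (50 counts in 3 libraries), a stranded column, a robust fit, the replicate number as a block, the 20 most abundant and mitochondrial genes left out, unmapped share or share outside exons as a covariate, and each library left out. Restriction to libraries with under 40% unmapped pairs, and division by exonic bases of no other gene, were added after seeing the data. That restriction left knockout replicate 1 as the only knockout library.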

Additional observations from a re-analysis of the deposited data

How the results depend on the processing

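Over 18 alternatives, the counts of 7 members higher and 2 lower stayed within 1.5 times, and 9 of the 10 members kept their direction, where called, and their side of the threshold. Pdgfd, never called, ranged from -0.11 to 0.31. Pi16 kept its direction and lost its call without each wild-type replicate, under DESeq2 (adjusted p = 0.0668) and in the fit with a term for unmapped pairs (0.331). The alternatives include the fit with only libraries under 40% unmapped, which left knockout replicate 1 as the only knockout library. That fit has no spread within knockout, so only its log2 fold changes are given. They were 0.46 for Pi16, 0.79 for Pdgfrb, 0.66 for Thy1, 0.74 for Fap and 0.83 for Dpt. Leaving out 1 library gave log2 fold changes of 1.08 to 1.65 for Pdgfrb and 0.58 to 1.57 for Pi16.

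The Pdgfc share differed by -43.6 percentage points as reported, by -45.1 with the stranded column by -52.5 with no division by exonic length and by -39.6 over the exonic bases of no other gene. The cause of the first shift was not tested. Over the alternatives, calls among all genes ranged from 1821 to 4648 higher and from 2238 to 4778 lower. With the fit that left only knockout replicate 1 among the alternatives, list counts that moved by over 1.5 times in at least 1 of them are given with their range. Among higher counts, these were VEGF relatives (1; 1 to 2), receptor-proximal (2; 1 to 4), negative regulators (1; 0 to 2), pan-fibroblast (16; 8 to 17), adventitial (9; 4 to 9), parenchymal (4; 2 to 6), antigen-presenting (5; 3 to 6), endothelial (1; 0 to 3), keratinocyte (12; 5 to 12) and skeletal muscle (9; 5 to 9). Among lower counts, they were ligand processing (3; 1 to 5), receptor-proximal (7; 2 to 10), negative regulators (4; 2 to 6), pan-fibroblast (2; 1 to 3), platelet (3; 1 to 4), endothelial and T cell (1; 1 to 3), inflammatory (1; 1 to 2), adventitial and parenchymal (0; 0 to 2), and myofibroblast and adipocyte (0; 0 to 1).

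With the replicate number as a replicate block, 7 members were higher and 2 lower, no member's call changed and Pi16 was 1.15. Deviations of same-numbered libraries correlated at 0.053, -0.212 and -0.243, and those of different-numbered libraries at -0.105 to 0.253. With 3 libraries per group, these values cannot show whether same-numbered libraries shared a batch. Depth limits Pdgfd, with 63 to 106 counts per library.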
